A study of Carassius auratus with 6 samples.

Results

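The genes examined were the core autophagy genes of the liver of crucian carp (Carassius auratus) after 12 h of hypoxia. They were the rows of the deposited gene table whose name starts with atg and a digit, or equals a listed autophagy gene with or without a copy letter. There were 112 such rows among 47544, and they belong to 42 genes, since this fish carries most genes in several copies. Of these genes 4 had 1 copy, 21 had 2, 6 had 3 and 11 had 4 or more, up to 5. The RefSeq gene table of the assembly ASM336829v1 lists 111 of the rows, 7 of them as pseudogenes. The remaining row is named Map1lc3b and was not matched to that table.

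Autophagy is the process by which a cell wraps part of its cytoplasm in a double membrane, the autophagosome, and delivers it to the lysosome for breakdown. A kinase complex around ULK1 starts it, a lipid kinase complex marks the growing membrane, ATG9, ATG2 and WIPI proteins supply it with lipid, and a conjugation system attaches proteins of the Atg8 family to it. Receptors such as SQSTM1 then tie cargo to the Atg8 proteins, and TFEB and TFE3 are transcription factors of lysosomal and autophagy genes. The liver is known for strong autophagy during fasting. The roles given here and below are those known from mammals and yeast.

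The study asked how the liver of this fish responds to low oxygen. Total RNA of wild-type liver was sequenced in 3 libraries of fish held under hypoxia for 12 h and in 3 libraries of control fish. The sources used here do not give the oxygen level, the age of the fish or whether each library came from a separate fish, so p-values measure the spread between these libraries. Reads counted over all genes came to 16939689, 17411676 and 22782649 under hypoxia and 15734847, 17540766 and 16782876 in control. Values are the authors' normalized counts, that is reads divided by a size factor per library. They are not divided by gene length, so levels are compared between libraries and not between genes.

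Liver identity was checked with marker genes. Hepatocyte markers, with 10 of 12 genes found in 24 rows, summed to 1046920 to 2173518 normalized counts under hypoxia and 1180459 to 2184714 in control, and 6 of the 24 rows were lower and 0 higher without overlap. Exocrine pancreas, which lies within the liver of carp-like fish, was present in unequal amounts: 7 of 14 marker genes in 30 rows summed to 50964 to 158103 under hypoxia and 360 to 120894 in control, with control 2 the lowest. Macrophage markers (5 of 9 genes) summed to 2931 to 10945 under hypoxia and 1184 to 4386 in control, with 4 of 13 rows higher and 0 lower without overlap. Endothelial markers (8 of 9 genes) summed to 1115 to 2340 under hypoxia and 861 to 1072 in control, without overlap, and 9 of 20 rows were higher and 0 lower. Of all tested genes 12.4% were higher and 12.2% lower without overlap. Stellate and biliary markers (7 of 9 genes) summed to 11547 to 24807 under hypoxia and 11688 to 16845 in control. Erythrocyte markers (5 of 9 genes) summed to 2153 to 10977 under hypoxia and 1041 to 4216 in control, and lymphocyte markers (7 of 8 genes) to 295 to 499 under hypoxia and 75.1 to 558 in control. No marker row was at 0 in every library, and the part of these cell types in the results below was not tested. In bulk liver RNA, fewer cells of a type and less RNA per cell cannot be told apart. Control 2 also lay farthest from its group mean, with a root mean square deviation of 0.91 log2 units against 0.53 to 0.71 in the other libraries.

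Of the 109 autophagy rows with a mean of at least 1 normalized count, 2 rose under hypoxia and 0 fell. The copies that rose were Gabarapl1 113059959, an Atg8 protein, and Sqstm1 113113483, a cargo receptor. Most other machinery had small changes, more of them below 0 than above. The test was limma's moderated test on log2(normalized count + 1) with Benjamini-Hochberg adjustment over all 41045 tested genes and a threshold of 0.05. By that test 1.83% of all tested genes rose and 0.417% fell, 2.24% in either direction, so the share of autophagy rows that rose, 2 of 109, was at the background. At an unadjusted p under 0.05, 11 autophagy rows were higher and 17 lower, against 10.2% and 8.41% of all tested genes. The quasi-likelihood test of edgeR on recovered reads also gave 2 higher and 0 lower (background 1.51% and 0.404%), while DESeq2 gave 4 higher and 2 lower (background 4.07% and 2.59%).

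Counted without any model, 15 of the 109 rows (13.8%) had all hypoxia libraries above all controls. A further 26 rows (23.9%) had all of them below. Among all tested genes, again, these shares were 12.4% and 12.2%. The log2 change was above 0 in 42 autophagy rows and below 0 in 67, that is 38.5% above 0, against 50.2% of all tested genes. The median change of the autophagy rows was -0.19, with a range of -2.18 to 2.87, while the median of all tested genes was 0.00, with quartiles of -0.50 and 0.60. With TMM factors the medians were -0.21 for the autophagy rows and -0.01 for all genes, and with quantile normalization -0.24 and -0.07. Without control 2, which stood apart, 19 rows (17.4%) were higher and 39 (35.8%) lower without overlap, against 20.3% and 20.9% of all tested genes. Leaving out a library can only keep or add rows without overlap, so none of these shares could fall.

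The side on which rows lay differed by role. The medians were -0.31 for initiation, -0.34 for the lipid kinase complex, -0.41 for lipid supply and -0.37 for conjugation. They were -0.13 for the Atg8 family, 0.18 for receptors and 0.72 for the transcription factors. Lipid supply had 6 of 15 rows lower without overlap and 0 higher, and conjugation had 8 of 21 lower and 1 higher. Receptors had 6 of 17 rows higher and 1 lower, and the higher ones included 2 sqstm1 and 3 nbr1 copies. Counts by role, here and below, are to be read against 12.4% higher and 12.2% lower without overlap among all tested genes. The other shares of all tested genes are 50.2% above 0, and 10.2% higher and 8.41% lower at an unadjusted p under 0.05. No test between roles was made.

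**Figure D1:**
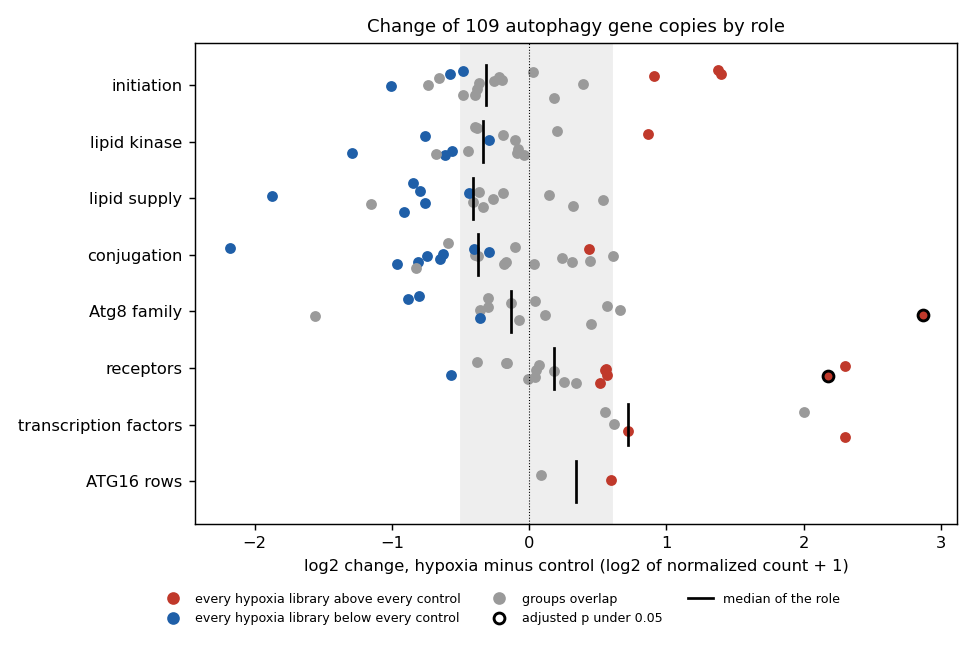
Log2 change (hypoxia minus control, on log2 of the normalized count + 1) of the 109 tested autophagy rows by role, 1 point a row; red and blue points are rows whose hypoxia libraries all lie above or below all controls, black rings mark the 2 rows with adjusted p under 0.05, vertical bars are role medians and the grey band spans the quartiles of all tested genes, -0.50 to 0.60. Most rows of the upper 4 roles lie left of 0, and the 5 rows of the transcription factors lie right of it.

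The Atg8 family, small ubiquitin-like proteins that are attached to the membrane lipid phosphatidylethanolamine, had 1 copy that rose, while the other tested rows did not pass the test and lay between -1.56 and 0.66. Gabarapl1 113059959, a member of the GABARAP branch, had 1452, 2969.6 and 1779 normalized counts in the hypoxia libraries, against 332, 405 and 145 in the control libraries. All hypoxia libraries were several-fold above all controls, hypoxia 2 was the highest and control 3 the lowest. The means were 2067 ± 799 under hypoxia and 294 ± 134 in control (SD, n = 3 each), a log2 change of 2.87 ± 0.42 (SE) with an adjusted p of 0.00979 by limma. Hypoxia 2, where it was highest, also had the highest sums of macrophage, endothelial, pancreas and stellate markers (10945, 2340, 158103 and 24807). Among controls it was highest in control 2, which had the lowest macrophage, endothelial and pancreas sums (1184, 861 and 360). The stellate sum of control 2 lay between those of the other controls. The part of these cell types was not tested. Without hypoxia 2 the change was 2.57 with an adjusted p of 0.0482 by limma, or 0.0669 with the tested genes held fixed. The adjusted p without control 3 was 0.0225, or 0.0555 with the tested genes held fixed.

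The other copy, Gabarapl1 113116382, behaved differently. It had 396, 349 and 375 normalized counts under hypoxia and 446, 554 and 391 in control. The groups overlapped, and most hypoxia values lay under the controls, with a log2 change of -0.30 ± 0.23 and an adjusted p of 0.51. Thus 113059959 gave 78.6%, 89.5% and 82.6% of the counts of both copies under hypoxia, against 42.7%, 42.2% and 27.1% in control. The log2 ratio of 113059959 to 113116382 was 3.17 higher under hypoxia, without overlap. Its two-sided exact permutation p was 0.1, the smallest that 3 against 3 libraries allow. The ratio was taken only for genes with a called copy, so it is no separate support for the rise. The sources used here do not say how reads shared by near-identical copies were counted, so the level of a single copy is uncertain wherever copies are alike. Summed over both copies, gabarapl1 had 1848, 3318 and 2154 normalized counts under hypoxia and 778, 958 and 537 in control, 3.22 times as much and without overlap.

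No other Atg8 row passed the test. MAP1LC3A 113095939, an LC3 protein, had 137, 199 and 214 normalized counts under hypoxia and 451, 341 and 238 in control, lower without overlap, with a log2 change of -0.88 ± 0.30 and an adjusted p of 0.18. Gabarapl2 113043653, which acts late in autophagosome growth, had 138, 139 and 112 under hypoxia and 323, 144 and 247 in control, so every hypoxia value lay below the controls, though closely so for control 2 (log2 change -0.80 ± 0.32, adjusted p 0.23). The second copy of each had overlapping groups. MAP1LC3A 113111119 lay near 0, at 0.04 ± 0.245 by limma and -0.0032 by edgeR, so its side of 0 was not settled. GABARAPL2 113067172 lay above 0, at 0.57. The 4 copies of gabarap itself all lay below 0, between -0.36 and -0.07, and Gabarap 113048778 averaged 1133 ± 86.9 under hypoxia and 1465 ± 265 in control. The 4 copies of map1lc3b, the LC3 protein most used as an autophagosome mark, ranged from -0.30 to 0.66, all with overlap. Of the 4 MAP1LC3C rows 3 were under the minimum mean and were not tested, with at most 2.36 normalized counts in any library, all of them under hypoxia. The tested one, MAP1LC3C 113055577, had 1.18, 0 and 0 under hypoxia and 3.30, 1.16 and 5.005 in control, with overlap (-1.56 ± 0.75, adjusted p 0.30).

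The 18 Atg8 rows together summed to 7036, 8229.8 and 7039 normalized counts under hypoxia and 7505, 6619 and 5671 in control. These sums overlapped. Without Gabarapl1 113059959 they were 5584, 5260.2 and 5260.0 under hypoxia and 7173, 6214 and 5526 in control, still with overlap at control 3.

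Among the cargo receptors both copies of sqstm1 stood out. SQSTM1, also called p62, binds ubiquitin and Atg8 proteins and is itself broken down by autophagy. Sqstm1 113113483 had 7844, 5272 and 10082 normalized counts under hypoxia and 1469, 1259 and 2420.3 in control, so the lowest hypoxia library was above the highest control. The means were 7733 ± 2407 under hypoxia and 1716 ± 619 in control (SD, n = 3 each), with a log2 change of 2.18 ± 0.36 and an adjusted p of 0.0183 by limma. The call was lost without hypoxia 1 (adjusted p 0.0954), without hypoxia 3 (0.0835) or without control 1 (0.0758). The edgeR test gave 0.0347.

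SQSTM1 113113360 had 5952, 1384 and 4239.6 normalized counts under hypoxia and 485, 602 and 988 in control. Hypoxia 2 was far under the other hypoxia libraries and still above each control. Its log2 change of 2.31 ± 0.52 had an adjusted p of 0.0584 by limma, 0.0607 by edgeR and 0.0613 with TMM factors. It passed by DESeq2 (0.000134) and with quantile normalization (0.0324). Of the 6 fits with 1 library left out it passed in 1, without hypoxia 2, its own lowest hypoxia library (0.0131). That fit was singled out after the data were seen, and the adjusted p of the others was up to 0.197. The log2 ratio of 113113483 to 113113360 differed by -0.13 between hypoxia and control, with overlap (two-sided exact permutation p = 0.8). Over both copies sqstm1 summed to 13796, 6656 and 14322 normalized counts under hypoxia and 1954, 1861 and 3408 in control, 4.81 times as much.

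**Figure D2:**
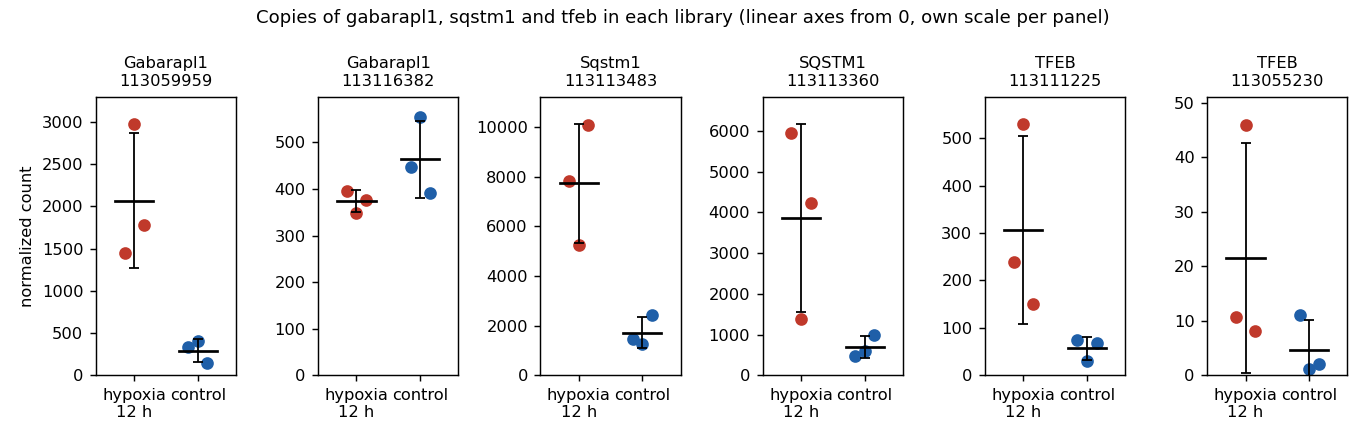
Normalized counts of both copies of gabarapl1, sqstm1 and tfeb in each library, hypoxia 12 h in red and control in blue, with group mean (bar) and SD (whisker, n = 3 each) and a linear axis from 0 for each panel. Hypoxia libraries lie above all controls in Gabarapl1 113059959, in both sqstm1 copies and in TFEB 113111225, and the groups overlap in Gabarapl1 113116382 and TFEB 113055230.

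The other receptors differed less, and none passed the test. NBR1, which binds ubiquitin and works beside SQSTM1, had 3 of 4 copies higher without overlap, with log2 changes of 0.52 to 0.56. NBR1 113111512 had 253, 254 and 264 normalized counts under hypoxia and 149, 205 and 170.2 in control (log2 change 0.56 ± 0.23, adjusted p 0.24). The remaining copy, Nbr1 113056183, overlapped at -0.17, and so did the sum of the 4. The receptor gene tax1bp1 had its copies on either side: tax1bp1b 113116267 had 1825, 1761 and 1594 under hypoxia and 1235, 912 and 1439 in control, whereas tax1bp1a 113062269 had 67.3, 67.3 and 90.3 under hypoxia and 93.4, 116 and 126 in control. It was the single gene of the 37 with 2 or more tested copies that had a copy higher and another lower without overlap. Rows named tax1bp1a and tax1bp1b were merged into a single gene for this count. The tax1bp1b rows lay at 0.18 and 0.55, and the tax1bp1a rows at -0.57, -0.38 and -0.005. Optineurin (optn) and CALCOCO1, a receptor for endoplasmic reticulum and Golgi, had 3 copies each, all with overlap and between -0.16 and 0.34.

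The transcription factors all lay above 0, and none of their 5 rows passed the test (3 higher and 0 lower at an unadjusted p under 0.05). TFEB 113111225 had 239.8, 529 and 151 normalized counts under hypoxia and 74.7, 30.1 and 68.1 in control, without overlap and with hypoxia 2 the highest. The means were 307 ± 198 under hypoxia and 57.6 ± 24.1 in control (SD, n = 3 each). The log2 change of 2.30 ± 0.50 had an adjusted p of 0.0536 by limma, 0.0533 by edgeR and 0.0609 with quantile normalization. It passed with no filter on low values (0.0497) and by DESeq2 (0.000572). With 1 library left out the adjusted p was 0.0653 to 0.172, and 0 of those fits called the row. As for Gabarapl1 113059959, its highest library was the one with the highest macrophage, endothelial and pancreas marker sums. Without hypoxia 2 the sum of both tfeb copies was still 1.72 log2 units above control, against 2.40 with it.

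TFEB 113055230 was low, at 10.6, 45.9 and 8.14 normalized counts under hypoxia and 10.99, 1.16 and 2.002 in control, and the groups overlapped. TFE3 113095888 had 261, 321 and 236 under hypoxia and 182, 161 and 149 in control, without overlap (log2 change 0.72 ± 0.24, adjusted p 0.16). TFE3 113107025 averaged 303 ± 92.8 under hypoxia and 193 ± 38.0 in control, with overlap. Summed over its 3 copies tfe3 averaged 739 ± 128 under hypoxia and 463 ± 26.6 in control, 1.59 times as much and without overlap.

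The genes of initiation were mixed within and between genes, and none of their 18 rows passed the test (3 higher and 2 lower at an unadjusted p under 0.05). The rows of ATG101, a small partner that stabilises ATG13 in the ULK complex, were both lower without overlap. The row atg101 113054408 had 167, 125 and 158 normalized counts under hypoxia and 365, 332 and 224 in control, so control 3 was the nearest to the hypoxia libraries. Its log2 change of -1.01 ± 0.27 had an adjusted p of 0.10 by limma and 0.0242 by DESeq2. Summed over both copies atg101 averaged 264 ± 13.3 under hypoxia and 477 ± 91.1 in control.

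The kinase genes themselves spread most. Ulk2 113058408 had 369.8, 771 and 408 normalized counts under hypoxia and 124, 358 and 141 in control, where control 2 came near the hypoxia values (log2 change 1.40 ± 0.44, adjusted p 0.15). Ulk1 113107483 had 169, 103 and 165 under hypoxia and 29.7, 97.1 and 55.1 in control, again with control 2 nearest (1.38 ± 0.44, adjusted p 0.15). Without control 2 both passed the test, at 1.87 with an adjusted p of 0.0236 for Ulk2 113058408 and at 1.79 with 0.0372 for Ulk1 113107483. That fit, chosen after the data were seen, called the most genes over the whole table among the fits with 1 library left out. The other ulk2 copy, Ulk2 113115130, averaged 662 ± 215 under hypoxia and 520 ± 236 in control, with overlap (0.39 ± 0.36, adjusted p 0.59). The sum of both ulk2 copies overlapped as well. The 5 ulk1 copies ranged from -0.66 to 1.38, and their sum overlapped at 675 ± 108 under hypoxia and 780 ± 201 in control. Of ulk3, a related kinase, 1 of 3 copies was lower without overlap. Both copies of the scaffold gene atg13 and all 4 of the scaffold gene rb1cc1 (FIP200) overlapped, and atg13 113051458 averaged 768 ± 90.4 under hypoxia and 893 ± 98.7 in control.

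In the lipid kinase complex, which makes phosphatidylinositol 3-phosphate, 14 of 16 rows lay below 0 and none passed the test (2 lower and 1 higher at an unadjusted p under 0.05). Pik3c3 113052107, a copy of the catalytic subunit VPS34, had 135, 125 and 133 normalized counts under hypoxia and 197, 230.0 and 240.2 in control. The hypoxia values lay close together and below each control, with a log2 change of -0.76 ± 0.23 and an adjusted p of 0.14. Its other copy overlapped at -0.10. AMBRA1 113043689, a regulator that binds beclin 1, averaged 81.0 ± 8.93 under hypoxia and 124 ± 10.4 in control (-0.61 ± 0.26, adjusted p 0.25), without overlap.

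Both copies of becn1, the gene of beclin 1, lay below 0, and their sum averaged 204 ± 13.4 under hypoxia and 302 ± 54.6 in control, without overlap. ATG14 113117658, the subunit that directs the complex to autophagosomes, averaged 220.2 ± 20.2 under hypoxia and 269 ± 11.2 in control (-0.29 ± 0.22, adjusted p 0.51), also without overlap. Both rows above 0 belong to UVRAG, which replaces ATG14 in the endosomal form of the complex. UVRAG 113109919 had 175, 89.5 and 121 under hypoxia and 59.3, 78.6 and 66.1 in control, without overlap (0.86 ± 0.32, adjusted p 0.20).

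Lipid supply had 12 of 15 rows below 0, 6 of them without overlap, and 0 called by limma (6 lower and 0 higher at an unadjusted p under 0.05). The row wipi1 113042656, for a protein that reads phosphatidylinositol 3-phosphate, had 73.2, 79.5 and 76.5 normalized counts under hypoxia and 137, 117 and 163 in control. The hypoxia libraries differed little among themselves and all lay below control (-0.84 ± 0.26, adjusted p 0.14). ATG9A 113092840, a copy of the scramblase of the seed vesicles, had 53.2, 67.3 and 74.1 under hypoxia and 116, 98.3 and 158 in control (-0.91 ± 0.30, adjusted p 0.16). The 4 ATG9A copies spread from -1.16 to 0.54, and their sum overlapped. With all libraries ATG9A 113042614 had 234, 174 and 178 under hypoxia and 429, 215 and 878 in control, with overlap (-1.16 ± 0.45, adjusted p 0.22). It passed the test only without control 2, at -1.66 with an adjusted p of 0.0332. Leaving out control 2 was chosen after the data were seen and gave the most calls over all genes among the fits with 1 library left out.

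ATG2B, a lipid transfer protein, had both copies lower without overlap. ATG2B 113117117 was near the limit of detection, at 1.18, 1.53 and 1.63 normalized counts under hypoxia and 8.79, 8.09 and 7.01 in control (-1.87 ± 0.59, adjusted p 0.15), and ATG2B 113060541 averaged 147 ± 43.7 under hypoxia and 242 ± 28.8 in control. WIPI2 113048385, a copy of the protein that recruits ATG16L1, averaged 416 ± 51.5 under hypoxia and 485 ± 139 in control with overlap.

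In the conjugation system the ATG4 proteases lay together. ATG4 enzymes trim new Atg8 proteins and release them from membranes. All 10 of their rows had a log2 change below 0, with 6 lower without overlap and 0 called by limma. Of all tested genes 50.2% lay above 0 and 12.2% were lower without overlap. The 10 rows are not 10 genes, since 5 of them are atg4d copies, and ATG4 was not a group set beforehand. Over the whole conjugation system 5 rows were lower and 0 higher at an unadjusted p under 0.05. ATG4C 113100202 had 108, 171 and 139 normalized counts under hypoxia and 298, 235 and 274 in control, clear of each other (-0.96 ± 0.26, adjusted p 0.105 by limma and 0.0367 by DESeq2). ATG4A 113038276 had 57.9, 63.5 and 65.9 under hypoxia and 111, 97.1 and 124 in control (-0.81 ± 0.27, adjusted p 0.16).

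Atg4d 113067860 was low throughout, at 1.18, 5.35 and 2.44 normalized counts under hypoxia and 10.99, 18.5 and 18.0 in control, with no overlap (-2.18 ± 0.63, adjusted p 0.12). Its neighbour on the reference with 0 genes between, 113067858, is also named Atg4d and is listed as a pseudogene. The 5 atg4d rows summed to 238 ± 30.2 under hypoxia and 373 ± 80.2 in control, without overlap.

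The enzymes that load Atg8 proteins did not move as a block. ATG7, the activating enzyme with a single copy, had 207, 247 and 240.1 normalized counts under hypoxia and 160.5, 175 and 177 in control. Every hypoxia library was above every control, by a small margin (log2 change 0.43 ± 0.22, adjusted p 0.34). Both atg3 copies, conjugating enzymes that act after ATG7, lay below 0, and their sum averaged 213 ± 3.24 under hypoxia and 274 ± 33.4 in control, without overlap. ATG5 113060035, part of the complex that places Atg8 proteins on the membrane, averaged 315 ± 52.4 under hypoxia and 336 ± 20.6 in control, with overlap. The other copy, ATG5 113116502, averaged 61.9 ± 7.54 under hypoxia and 82.3 ± 11.7 in control, lower without overlap (-0.40 ± 0.29, adjusted p 0.49). The sum of both ATG5 copies overlapped. The rows of atg10, atg12, atg16l1 and atg16l2 all overlapped, from -0.37 for ATG12 to 0.61 for an ATG16L2 copy. Of the rows named only atg16, atg16 113080032 averaged 89.5 ± 32.0 under hypoxia and 56.9 ± 7.03 in control without overlap (0.59 ± 0.34, adjusted p 0.38), and atg16 113114627, a listed pseudogene, overlapped at 0.09.

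**Figure D3:**
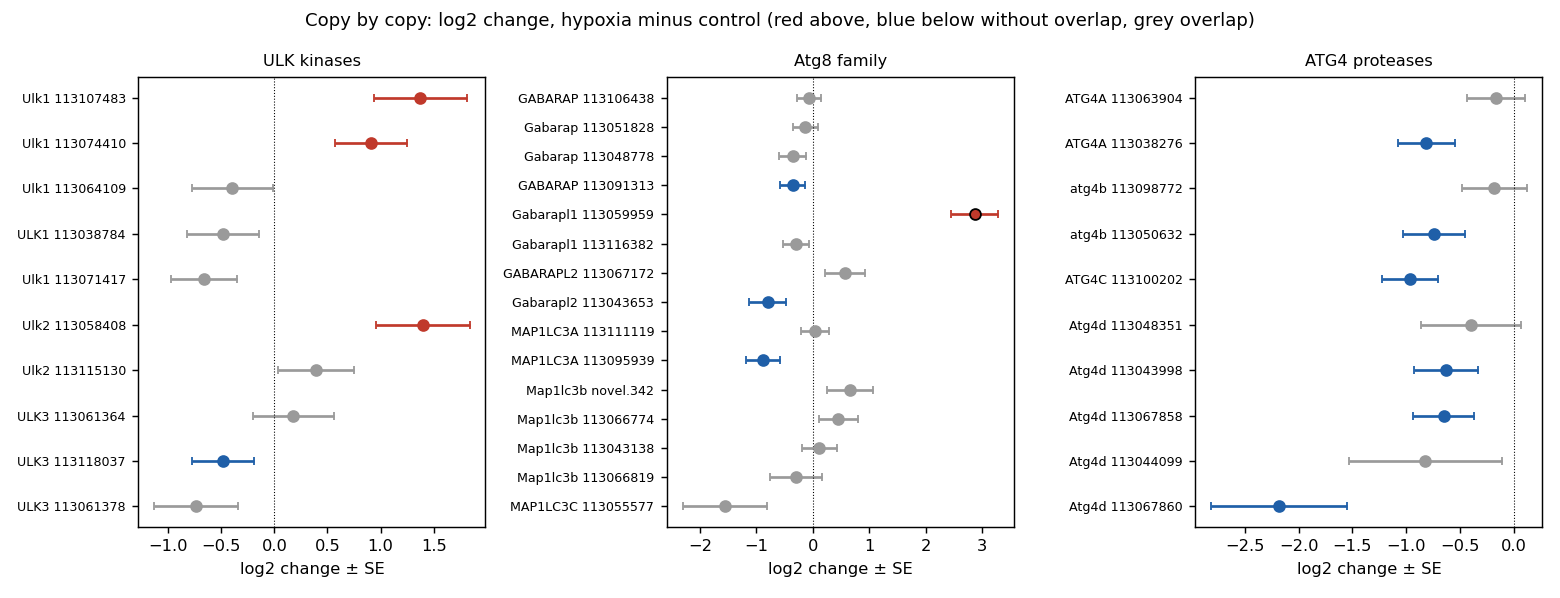
Log2 change (hypoxia minus control) with its standard error for each tested copy of the ULK kinases, the Atg8 family and the ATG4 proteases; red and blue mark copies above or below all controls in every hypoxia library, grey marks overlap, and the ringed point is Gabarapl1 113059959. The ulk1 copies run from -0.66 to 1.38, the Atg8 family has 1 copy at 2.87, and all 10 ATG4 rows lie below 0.

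Copies of a gene were compared by the side of 0 on which they lay. Among the 37 genes with 2 or more tested copies, 16 had every copy below 0 and 9 had every copy above 0, and the median distance between the highest and the lowest copy was 0.56 log2 units. Of the 21 genes with exactly 2 tested copies 18 (85.7%) had both on the same side, against 67.0% of the 4767 gene names with 2 tested copies in the whole table. Summing copies removes a split of shared reads between them. Of the 42 sums, 6 were higher without overlap, namely atg7, gabarapl1, sqstm1, tax1bp1, tfe3 and tfeb, and 13 were lower. Over all genes summed by name the corresponding shares were 12.7% and 15.7%. Those 13 were ambra1, atg101, atg14, atg2b, atg3, atg4a, atg4c, atg4d, becn1, gabarap, pik3c3, pik3r4 and wipi1. The median log2 ratio of the 42 sums was -0.25. Each sum without overlap had a two-sided exact permutation p of 0.1, the smallest possible with 3 against 3, and 0.221 after Benjamini-Hochberg adjustment over the 42.

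**Figure D4:**
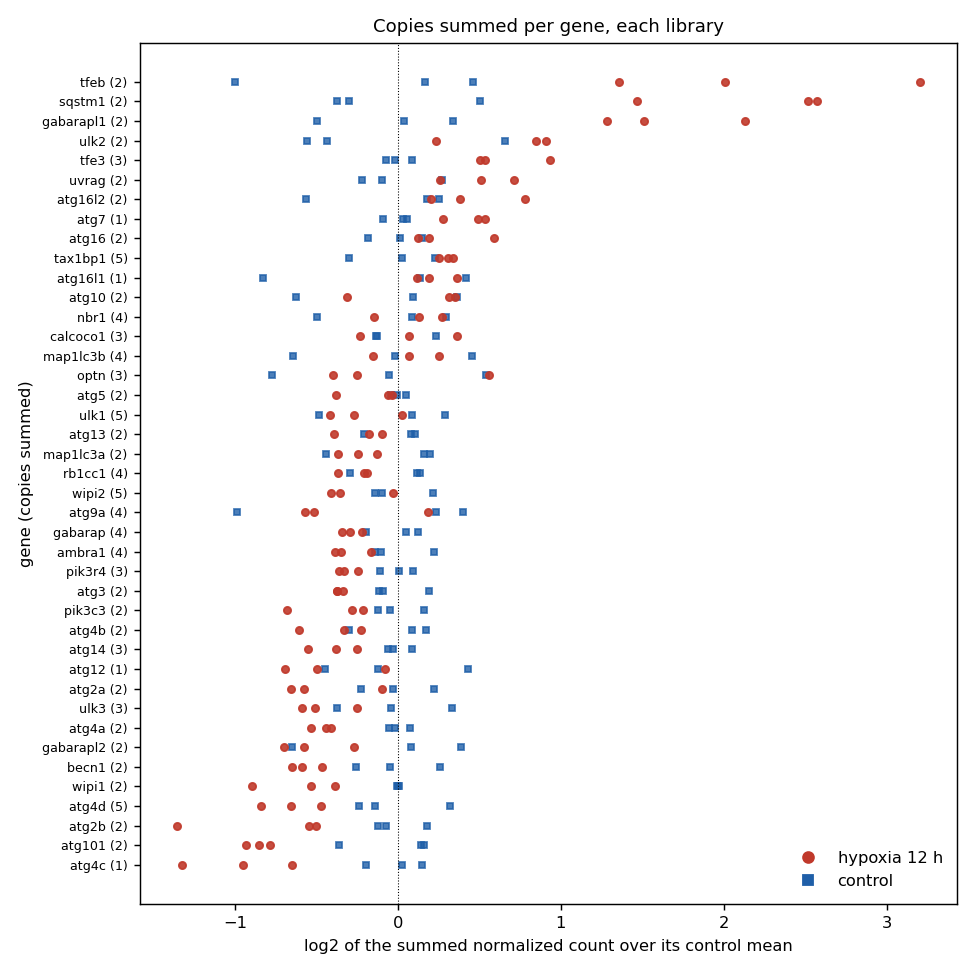
Summed normalized counts of all copies of a gene in each library, as log2 over the control mean, for the 41 genes other than map1lc3c; red circles are hypoxia libraries, blue squares are controls, and the number of copies is in brackets. At the top, all hypoxia libraries of tfeb, sqstm1 and gabarapl1 stand more than 1 log2 unit above the control mean. At the bottom, those of atg4c, atg101 and atg2b lie below it.

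Genes around the core machinery were counted by lists, to be read against the shares of all tested genes. By limma 1.83% rose and 0.417% fell, and 10.2% were higher and 8.41% lower at an unadjusted p under 0.05. At an adjusted p under 0.05, edgeR called 1.51% higher and 0.404% lower, and DESeq2 4.07% and 2.59%. Signalling through mTOR and AMPK, the kinases that restrain and promote autophagy, had 79 tested rows, of which 7 rose and 0 fell by limma (9 higher and 3 lower at an unadjusted p under 0.05, edgeR 7 and 0, DESeq2 8 and 0), with a median of -0.03. The lists were drawn up with earlier results of these data known. All 7 rows that rose here were copies of ddit4, FNIP1 or FNIP2, so they do not stand for 7 genes. The 4 with the smallest p were copies of ddit4, an mTOR inhibitor. For example, ddit4 113055822 averaged 7165 ± 1047 normalized counts under hypoxia and 78.1 ± 24.4 in control. For ddit4 113091945 there was 1 read in all of control against 579 under hypoxia, a ratio of 475 with a 95% interval of 84.9 to 18783 from counting error only. With 1 library left out the ratio was 304 to 523, or at least 106-fold higher without control 1, which held the read, taking 3 reads over the control group as the floor.

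The other rows that rose, named here after their values were seen, were of FNIP1 and FNIP2, partners of folliculin, which acts on the control of TFEB and TFE3 by mTOR. FNIP2 113080842 averaged 166 ± 31.7 under hypoxia and 5.91 ± 3.14 in control (log2 change 4.68 ± 0.45, adjusted p 0.00113). FNIP1 113063842 averaged 820.1 ± 61.6 under hypoxia and 264 ± 32.0 in control (1.64 ± 0.22, adjusted p 0.0062). Each group was clear of the other in both rows. FNIP2 113106777, with more counts, averaged 367 ± 58.2 under hypoxia and 42.1 ± 19.6 in control (3.21 ± 0.39, adjusted p 0.00388 by limma). The other tested copies of these genes were not called by limma. FNIP1 113038264 lay at 0.75 without overlap (adjusted p 0.32), and FNIP2 113044215 at 0.14 with overlap (adjusted p 0.92).

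Of 143 tested lysosome rows, 0 rose and 0 fell by limma or edgeR, while DESeq2 gave 2 higher and 0 lower, and at an unadjusted p under 0.05 there were 9 higher and 4 lower. Their median was 0.08. LAMP1 113044686, a lysosomal membrane protein, had 608, 788 and 484 normalized counts under hypoxia and 270.3, 344 and 221 in control, without overlap (1.16 ± 0.27, adjusted p 0.069). LAMP1 113086720, with more counts, averaged 831 ± 100 under hypoxia and 637 ± 366 in control, with overlap (0.52, adjusted p 0.48 by limma). The low LAMP1 rows 113053097, 113108835 and 113109274 also overlapped, at -0.61, 0.77 and 0.89. CTSS 113116110, cathepsin S, a protease abundant in macrophages, had 8.27, 32.9 and 6.51 normalized counts under hypoxia and 0, 1.16 and 0 in control. These are 58 reads under hypoxia and 1 in control, a ratio of 47.6 with a 95% interval of 8.20 to 1910.4 (adjusted p 0.0681). It was highest in hypoxia 2, as were the macrophage markers, and without that library the ratio was 20.05 (3.08 to 844). Without any other single hypoxia library or control 1 or 3 it was 30.4 to 64.4. Without control 2, which held the control read, it was at least 10.9-fold higher by the same floor, with an adjusted p of 0.0375. This is a trace row. Among CTSS rows with more counts, 113116112 had 37.8, 111 and 34.2 under hypoxia and 0, 20.8 and 0 in control. Its groups did not overlap (log2 change 4.26 ± 1.15, adjusted p 0.10 by limma). CTSS 113116109, 113116113 and 113059153 lay above 0 with overlap, at 0.64, 0.52 and 0.35. CTSS 113116111 averaged 1890 ± 1098 under hypoxia and 1028 ± 581 in control, with overlap (log2 change 0.93). CTSS 113059154 averaged 1209 ± 580 under hypoxia and 2107 ± 1514 in control, also with overlap (log2 change -0.40).

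Among 36 tested rows for fusion of autophagosomes with lysosomes, 1 rose and 0 fell by limma and by edgeR, with 3 higher and 4 lower at an unadjusted p under 0.05 and a median of -0.13. PLEKHM1 113056379, an adaptor that joins the small GTPase RAB7, the HOPS tether and Atg8 proteins, had 149, 107 and 175 normalized counts under hypoxia and 30.8, 52.0 and 37.0 in control. Its lowest hypoxia library was well above its highest control, with a log2 change of 1.82 ± 0.33 and an adjusted p of 0.0275. In 5 of the 6 fits with 1 library left out the call was lost, with an adjusted p of up to 0.136. Of 64 tested rows of accessory autophagy genes, 0 rose and 0 fell by limma or edgeR, 1 was lower by DESeq2, and 5 were higher and 5 lower at an unadjusted p under 0.05. The smallest p there was for NRBF2 113111925, a subunit of the lipid kinase complex, which averaged 116 ± 19.1 under hypoxia and 235 ± 39.9 in control (-1.01 ± 0.26, adjusted p 0.0905). ZFYVE1 113063064, a protein that marks the membrane sites where autophagosomes form, averaged 64.5 ± 20.1 under hypoxia and 129 ± 7.67 in control (-1.04 ± 0.32, adjusted p 0.14). Both rows had every hypoxia library below every control.

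The authors' deposited table called 4 of the autophagy rows higher and 2 lower at an adjusted p under 0.05, where it called 3.43% and 2.06% of all rows. In the authors' deposited table the higher rows were Gabarapl1 113059959, both sqstm1 copies and TFEB 113111225. The lower rows in the authors' deposited table were atg101 113054408, with an adjusted p of 0.0313, and ATG4C 113100202, with 0.0479.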

How the data were processed

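Total RNA of 6 liver libraries was sequenced, 3 of hypoxia for 12 h and 3 of control. Bowtie2 2.2.8 and TopHat2 2.1.1 are named in the submitters' processing notes. Genome build, annotation and counting tool: not given in the sources used here. The deposited signal values, named FPKM by the authors, are read counts over size factors of 0.8465 to 1.3079: multiplying back gave whole reads, within 0.01, for 100.0% of values. The authors' deposited table also holds their log2 fold change, p-values and adjusted p-values.

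Members and lists were chosen with earlier results of these data known. Genes with a mean of at least 1 normalized count over the 6 libraries were tested on log2(value + 1) with limma 3.58.1 (R 4.3.3, mean-variance trend), and p-values were adjusted by Benjamini-Hochberg over all 41045. The pseudocount shrinks changes of low genes. Values for copies summed per gene were compared by two-sided exact permutation tests. Alternatives were edgeR 4.0.16 and DESeq2 1.42.0 on recovered reads, pseudocounts of 0.5 and 5, no filter, a mean of at least 10, TMM factors, quantile normalization, a replicate block, and leaving out each library with the filter applied again. Scripts were tested on simulated data.

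Named genes were every called row, all copies of its gene, and in each role the 3 rows with the smallest p and the row with the highest mean. In each list up to 4 called rows were named, or, with none called, the 2 with the smallest p. Other rows given with values, such as ATG7, both tax1bp1 rows, ATG9A 113042614 and second copies of named genes, were chosen after their values were seen. Marker lists follow known cell type markers. Reads counted over all genes came to 15734847 to 22782649 per library, with 38944 to 41667 genes having a read.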

Additional observations from a re-analysis of the deposited data

How the results depend on the processing

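Over all genes, DESeq2 called 1671 higher and 1062 lower, quantile normalization called 274 lower, and leaving out 1 library gave 285 to 1425 higher and 36 to 935 lower, the most without control 2. Of the autophagy rows, DESeq2 called 4 higher and 2 lower, and leaving out 1 library gave 1 to 4 higher and 0 to 1 lower. No filter and quantile normalization gave 3 higher each. Without control 2, an alternative chosen after seeing the data, 19 rows (17.4%) were higher and 39 (35.8%) lower without overlap, against 15 and 26 with it. Of all tested genes 20.3% were higher and 20.9% lower without control 2, against 12.4% and 12.2% with it. These counts could only stay or grow, since leaving out a library never adds overlap. For the lists, DESeq2 called 2 lysosome rows and 2 fusion rows higher and 1 accessory row lower. Leaving out 1 library gave 0 to 3 lysosome rows higher and 0 to 2 lower, 0 to 1 fusion rows higher and 0 to 1 lower, 0 to 1 accessory rows higher and 0 to 1 mTOR and AMPK rows lower. The difference in log2 ratio between the sqstm1 copies, -0.13, ran from -0.49 to 0.27 with 1 library left out, above 0 without hypoxia 1 (0.27) or control 1 (0.02). With 1 library left out, ATG5 113060035 ran from -0.20 to 0.038, above 0 without hypoxia 2. WIPI2 113048385 ran from -0.31 to 0.033 and atg16 113114627 from -0.073 to 0.19, and both changed sign without control 2. The causes of these moves were not tested.

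Replicate numbers were shared between groups, but same-numbered libraries did not deviate together (correlations -0.07, -0.19 and -0.03), so they were not paired. With the replicate block 354 genes rose and 61 fell, 2 autophagy rows rose and 0 fell, and 0 fusion rows rose. For single named genes, 338 of the values under other settings kept their direction and side of the threshold, 1 lost its call, 9 gained one and 0 changed sign. With 1 library left out, 218 kept both, 8 lost a call, 5 gained one and 3 changed sign. Intervals cover counting error only, and 3 libraries a group limit what could be detected.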
